A study of Sus scrofa with 7 samples.

Results

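The cell cycle and DNA replication genes described here are a set of 45 genes, chosen by name from the deposited table of heart muscle RNA sequencing. They divide into 7 cyclins and kinases of the G1 phase, 15 genes of DNA replication and 23 genes of mitosis. Where a gene had several transcript rows, the one of highest mean was used. All 45 were present among the 20653 genes of the table and stood at 10 normalized counts or more in 3 or more libraries, as did 15661 genes in all. Of the 45, 44 reached that level in every library, the exception being UBE2C. A normalized count is the number of reads of a transcript divided by a size factor of its library.

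The tissue was anteromidventricular myocardium of male farm pigs, sampled 14 weeks after myocardial infarction by way of the left circumflex coronary artery (LCX). Both groups had been infarcted and then given AAV5, a gene transfer vector made from an adeno-associated virus. For the S100a1 group (4 libraries) its cargo was the human gene for S100A1, which binds calcium in heart muscle cells. For the hrLuc group (3 libraries) the cargo was the reporter luciferase. The labels give neither the age of the pigs, nor the vector's promoter, nor an uninfarcted or untreated group, so each difference below is one between vectors in infarcted hearts. Each title names a separate pig.

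Entry into the cell cycle is driven by D-type cyclins with CDK4, which release E2F transcription factors from the retinoblastoma protein, and then by cyclin E with CDK2. CDC6 and CDT1 load the MCM helicase onto replication origins, GINS2 and PCNA act at the fork, and RRM1, RRM2 and TYMS supply nucleotides. Cyclins A and B with CDK1, the Aurora and Polo kinases, kinesins and checkpoint proteins then carry the cell through mitosis. Most adult heart muscle cells do not divide, and in an infarcted heart the dividing cells are known to include fibroblasts, endothelial cells and immune cells. In bulk tissue, fewer dividing cells and less of these RNAs per cell cannot be told apart.

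The libraries held 28679324 to 38409552 reads with 1 row per gene. Heart muscle markers were abundant in every library, with TNNT2 at 90352 to 117127 normalized counts. Pig S100A1 did not check the labels, since the sources used here do not say whether human reads were counted on it. The hrLuc mean was 7718 ± 1298 (SD, n = 3) and the S100a1 mean 5933 ± 1064 (SD, n = 4), with a log2 fold change of -0.39 (unadjusted p = 0.0410, adjusted p = 0.577, limma). The exact two-sided permutation p was 0.114, where the smallest p this design allows is 0.0286. Fold changes are S100a1 over hrLuc on the log2(value + 0.5) scale, each with its standard error.

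None of the 45 genes passed an adjusted p of 0.05, although most had lower means in the libraries labelled S100a1. In limma the threshold was passed by 0 of the 45 and by 0.0128% of all genes tested, and the smallest adjusted p among the 45 was 0.557, for MCM4. On the recovered reads it was passed by 0 of the 45 in edgeR (0.0128% of all genes) and by 0 in DESeq2 (0.568%). At an unadjusted p under 0.05 there were 3 lower members (MCM4, MCM6 and MKI67) and 0 higher ones, or 6.67% lower, against 4.57% of all genes lower, 3.69% higher and 8.26% either way. That share is near the background. In edgeR 2 members were lower at that level (3.96% of all genes) and in DESeq2 3 (3.97%). The log2 fold change was negative in 41 of the 45 (91.1%), against 56.5% of all genes, and in 38 with median centring and 39 with quantile normalization. The median was -0.27 over the replication genes, -0.36 over the mitotic genes and -0.21 over the G1 genes, against -0.024 over all genes tested. These medians describe the lists and carry no test. The genes share the same 7 libraries, so their values are not independent of each other.

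**Figure D1:**
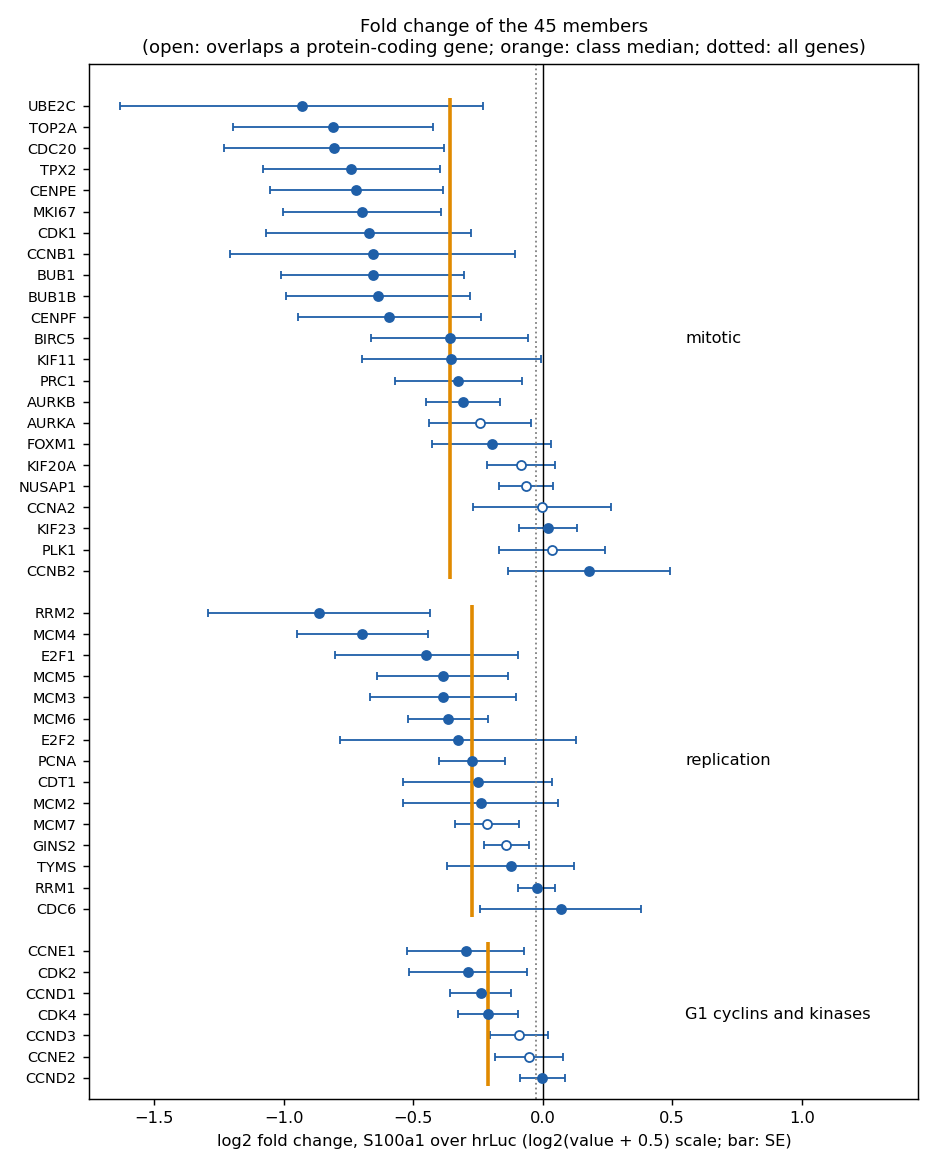
Log2 fold change (x axis, S100a1 over hrLuc, with bars of 1 standard error) of each of the 45 genes, sorted within the G1, replication and mitotic classes. Open points overlap another protein-coding gene, orange lines are class medians (-0.36 for mitotic genes) and the dotted line is the median of all genes, -0.024. The mitotic genes spread from -0.93 (UBE2C) to 0.18 (CCNB2).

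In the authors' deposited table the same genes also missed the threshold. Its adjusted p was under 0.05 for 0 of the 45 and for 0.661% of the genes that have one in the rows used here, and the smallest among the 45 was 0.320, for MCM4. The authors' log2 fold changes in that table ran from -0.85 for CDC20 to 0.17 for CCNB2, with 41 of 45 negative.

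The MCM genes encode the 6 subunits of the replicative helicase, and all 6 had lower means in S100a1 than in hrLuc, where replicate 1 was the highest library of each. MCM4 (Sscrofa11.1, chromosome 4, 79674737 to 79686964) was at 190, 134 and 110 normalized counts in hrLuc replicates 1 to 3 and at 72.1, 110, 66.7 and 107 in S100a1 replicates 1 to 4. The lowest hrLuc library stood 0.150 normalized counts above the highest S100a1 library, less than the value of 1 read, so the groups were apart in rank only. The log2 fold change of MCM4 was -0.70 ± 0.25 (unadjusted p = 0.0230, adjusted p = 0.557, limma). Without hrLuc replicate 1 it was -0.48, and without hrLuc replicate 3 it was -0.87.

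MCM6 (chromosome 15, 15923638 to 15978587) was at 619, 469 and 379 in hrLuc and at 354, 397, 386 and 354 in S100a1. The 4 S100a1 values lay within a narrow band, and hrLuc replicate 3 fell inside it. Its log2 fold change was -0.36 ± 0.15 (unadjusted p = 0.0432, adjusted p = 0.579, limma), and -0.18 without hrLuc replicate 1. In MCM2, MCM3, MCM5 and MCM7 the log2 fold changes were -0.24, -0.39, -0.39 and -0.22. Here too hrLuc replicate 1 was the highest library of each gene, for example 161 in MCM2 and 198 in MCM3. Without that library MCM2 stood at 0.10, MCM3 at -0.07, MCM5 at -0.12 and MCM7 at -0.13. MCM7 overlaps AP4M1, and reads of overlapping genes may be counted for both.

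PCNA, the sliding clamp of the replication fork (chromosome 17, 14137746 to 14142584), was at 398, 366 and 352 in hrLuc and at 251, 351, 325 and 311 in S100a1. The groups did not overlap, but hrLuc replicate 3 and S100a1 replicate 2 were 0.914 normalized counts apart, and S100a1 replicate 1 was lowest. The log2 fold change was -0.27 ± 0.13 (unadjusted p = 0.0625, adjusted p = 0.609, limma). GINS2, a subunit of the GINS complex that overlaps GSE1, was the third gene whose groups did not overlap, with means of 566 ± 38.7 (SD, n = 3) and 514 ± 29.4 (SD, n = 4). Groups apart in the lower direction were found in 3 of the 45 genes (6.67%), against 5.31% of all genes tested, and apart in the higher direction in 0, against 3.96%.

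The 2 subunits of ribonucleotide reductase, the enzyme that makes deoxynucleotides, differed in their spread. RRM2, the subunit whose level is known to follow S phase (chromosome 3, 126357198 to 126367145), was at 120, 215 and 85.2 in hrLuc and at 38.2, 57.8, 105 and 111 in S100a1. Its highest library held 5.62 times the lowest, and S100a1 replicates 3 and 4 lay above hrLuc replicate 3. The log2 fold change was -0.86 ± 0.43 (unadjusted p = 0.0744, adjusted p = 0.618, limma), moving to -0.50 without hrLuc replicate 2. RRM1, the large subunit, lay between 1175 and 1302 in all 7 libraries, with a log2 fold change of -0.02 ± 0.07.

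TYMS, which makes thymidylate, had 176 normalized counts in hrLuc replicate 1 and 88.4 to 127 in the other 6 libraries. Without that library its log2 fold change turned from -0.12 to 0.17. E2F2 showed the same dependence, with 56.5 in hrLuc replicate 1 and 15.3 to 31.4 elsewhere, and turned from -0.33 to 0.22. E2F1 was highest in hrLuc replicate 2, at 107, and lowest in S100a1 replicate 1, at 30.6, with a log2 fold change of -0.45 ± 0.35. The licensing factors CDT1 (-0.25 ± 0.29) and CDC6 (0.07 ± 0.31) had 18.9 to 33.9 and 14.8 to 26.3 normalized counts.

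**Figure D2:**
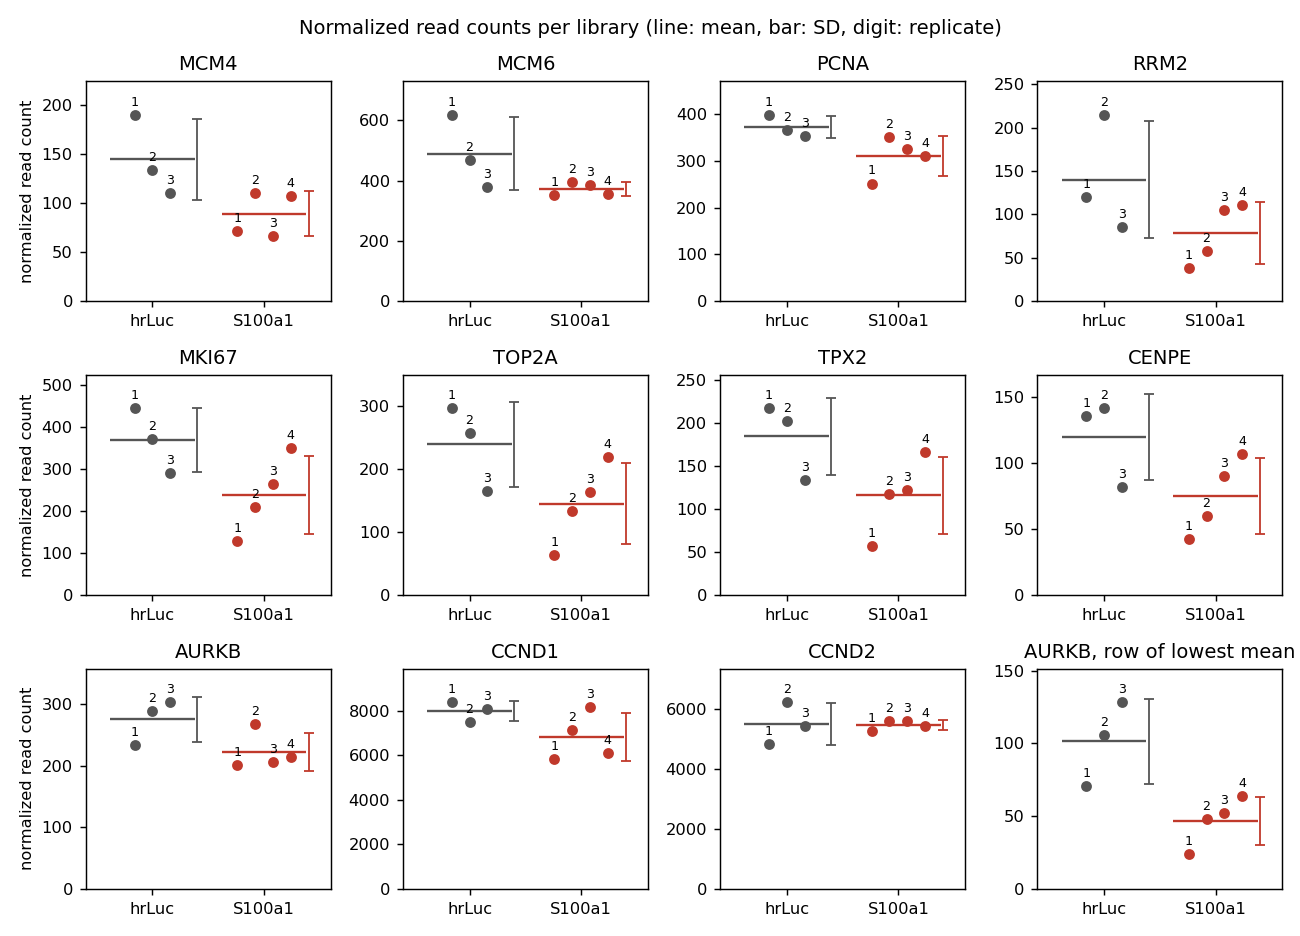
Normalized read count (y axis, from 0) of 11 of the genes in each library, by label (x axis), with the replicate number at each point, the mean as a line and the SD as a bar. The last panel gives AURKB in its transcript row of lowest mean. In MKI67 the S100a1 libraries run from 129 to 348 and in TOP2A from 64.4 to 220, around hrLuc replicate 3 in both genes.

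Among the mitotic genes, the proliferation marker MKI67 and topoisomerase TOP2A had lower means in S100a1, with groups that overlapped. MKI67 (chromosome 14, 137266622 to 137296312) was at 443, 370 and 291 in hrLuc and at 129, 210, 264 and 348 in S100a1. Its replicate 4 of S100a1 lay above hrLuc replicate 3, and its replicate 1 was the lowest of the 7. The log2 fold change of MKI67 was -0.70 ± 0.30 (unadjusted p = 0.0479, adjusted p = 0.595, limma), and -0.43 without S100a1 replicate 1. TOP2A (chromosome 12, 22001300 to 22028452), which untangles DNA before the chromosomes part, was at 296, 258 and 165 in hrLuc and at 64.4, 133, 163 and 220 in S100a1. The libraries fell in the same order as for MKI67. The log2 fold change was -0.81 ± 0.39 (unadjusted p = 0.0657, adjusted p = 0.614, limma), and -0.46 without S100a1 replicate 1.

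TPX2, a spindle assembly factor that activates Aurora A (chromosome 17, 35431271 to 35484814), was at 217, 203 and 134 in hrLuc and at 56.8, 118, 123 and 167 in S100a1. CENPE, a kinetochore motor (chromosome 8, 117888968 to 117965325), was at 136, 141 and 81.8 and at 42.6, 60.0, 89.8 and 106. In both genes S100a1 replicate 1 was the lowest library and S100a1 replicate 4 exceeded hrLuc replicate 3. Their log2 fold changes were -0.74 ± 0.34 and -0.72 ± 0.33 (adjusted p = 0.609 for each, limma), and -0.43 and -0.48 without S100a1 replicate 1.

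AURKB, the kinase of the chromosomal passenger complex (chromosome 12, 53410833 to 53426165), gave a value that depended on which of its 13 transcript rows was read. In the row of highest mean it was at 234, 289 and 303 in hrLuc and at 202, 268, 207 and 214 in S100a1, a log2 fold change of -0.31 ± 0.14 (unadjusted p = 0.0616, adjusted p = 0.609, limma). In the row of lowest mean it was at 70.6, 106 and 128 in hrLuc and at 24.0, 47.8, 51.9 and 63.7 in S100a1. In that row the groups did not overlap, and the log2 fold change was -1.15 ± 0.35 (unadjusted p = 0.00885, adjusted p = 0.513, limma). Which rows hold reads from outside the AURKB message was not tested. The annotated span of the gene also holds 4 tRNA genes.

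KIF20A, a kinesin of cell division that overlaps CDC23, moved in the same way, from -0.08 ± 0.13 in the row of highest mean, where the libraries held 176 to 231 normalized counts, to -0.40 ± 0.30 in the row of lowest mean, at 34.9 to 83.4. Of the 17 genes with 2 or more distinct rows, 3 shifted by more than 0.1 between these rows, the other being CCND3. With the row of lowest mean for every gene the mitotic median was -0.59 in place of -0.36, and 4 of the 45 were lower at an unadjusted p under 0.05 (limma), against 4.58% of all genes in that fit.

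The remaining mitotic genes ranged from lower means to little difference, and no division between them was tested. CDK1, the mitotic kinase, was at -0.67 ± 0.39, its partner CCNB1 at -0.66 ± 0.55, the checkpoint kinase BUB1 at -0.66 ± 0.35 and its relative BUB1B at -0.64 ± 0.36. CENPF, a kinetochore protein, was at -0.59 ± 0.35, and the activators of the anaphase-promoting complex and its ubiquitin-conjugating enzyme, CDC20 and UBE2C, were at -0.81 ± 0.43 and -0.93 ± 0.70. These genes have few reads, and UBE2C in S100a1 replicate 1 rests on 4 reads. BIRC5, KIF11, PRC1, AURKA and FOXM1 lay between -0.36 and -0.20. Adjusted p-values of these 12 genes were 0.636 or more (limma).

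Little difference was seen in CCNB2 (0.18 ± 0.31), PLK1 (0.04 ± 0.21), KIF23 (0.02 ± 0.11), CCNA2 (-0.0044 ± 0.27) and NUSAP1 (-0.06 ± 0.10). CCNB2 followed hrLuc replicate 2 (68.4) and S100a1 replicate 4 (75.1) upward, as did CCNB1 (71.6 and 62.0). NUSAP1, a spindle-associated protein, stood at 6490 to 8721 normalized counts, whereas the other mitotic genes ranged up to 443. It overlaps OIP5, at 5430 to 7428, and NDUFAF1, and its order of libraries was the same as that of OIP5 at both ends, with S100a1 replicate 3 highest and S100a1 replicate 1 lowest. CCNA2 overlaps EXOSC9, PLK1 overlaps ERN2 and KIF23 overlaps a noncoding RNA. Noncoding RNA genes also overlap CCND2, E2F2, MCM4, CENPF and PRC1, and a pseudogene overlaps CDK1. Whether noncoding overlap bears on these values was not tested.

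Of the 45 genes, 9 overlap another protein-coding gene, and their values differed less between libraries than those of the others. Their median log2 fold change was -0.08 and their median ratio of highest to lowest library 1.38, against -0.36 and 2.62 in the 36 others. Without the overlapping genes the median was -0.65 over 18 mitotic genes and -0.33 over 13 replication genes, and the members lower at an unadjusted p under 0.05 numbered 3 as before (limma). MCM5 has no assigned chromosome, so its overlap could not be assessed, and it is counted among the 36 and the 13. Whether the overlap lowers these values was not tested.

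Genes of the G1 phase varied least. CCND1, the cyclin that couples growth signals to CDK4, was at 8371, 7469 and 8071 in hrLuc and at 5827, 7135, 8171 and 6082 in S100a1, a log2 fold change of -0.24 ± 0.12 (unadjusted p = 0.0721, adjusted p = 0.618, limma). S100a1 replicate 3 lay above 2 of the hrLuc libraries. CCND2 was at 4843, 6223 and 5428 in hrLuc and at 5261, 5594, 5585 and 5414 in S100a1, a difference of -0.0019 ± 0.09. The S100a1 values of CCND2 lay inside the hrLuc range.

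CCND3, which overlaps TAF8, was at 1653, 1635 and 1428 in hrLuc and at 1263, 1740, 1417 and 1506 in S100a1 (-0.09 ± 0.11). CDK4, the partner kinase of the D cyclins, was at 473, 404 and 424 and at 321, 424, 366 and 393 (-0.21 ± 0.12, adjusted p = 0.642, limma). In both genes S100a1 replicate 1 was lowest and the groups overlapped. CDK2, the S-phase kinase, was at 143, 127 and 103 in hrLuc and at 67.7, 114, 110 and 121 in S100a1 (-0.29 ± 0.23), and -0.10 without S100a1 replicate 1. CCNE1 was at 88.5, 52.4 and 68.2 and at 57.9, 65.6, 53.5 and 46.3 (-0.30 ± 0.23), and -0.11 without hrLuc replicate 1. CCNE2, which overlaps INTS8, was at 149, 133 and 122 and at 127, 135, 136 and 120 (-0.05 ± 0.13). The cyclin E genes overlapped between groups as well.

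**Figure D3:**
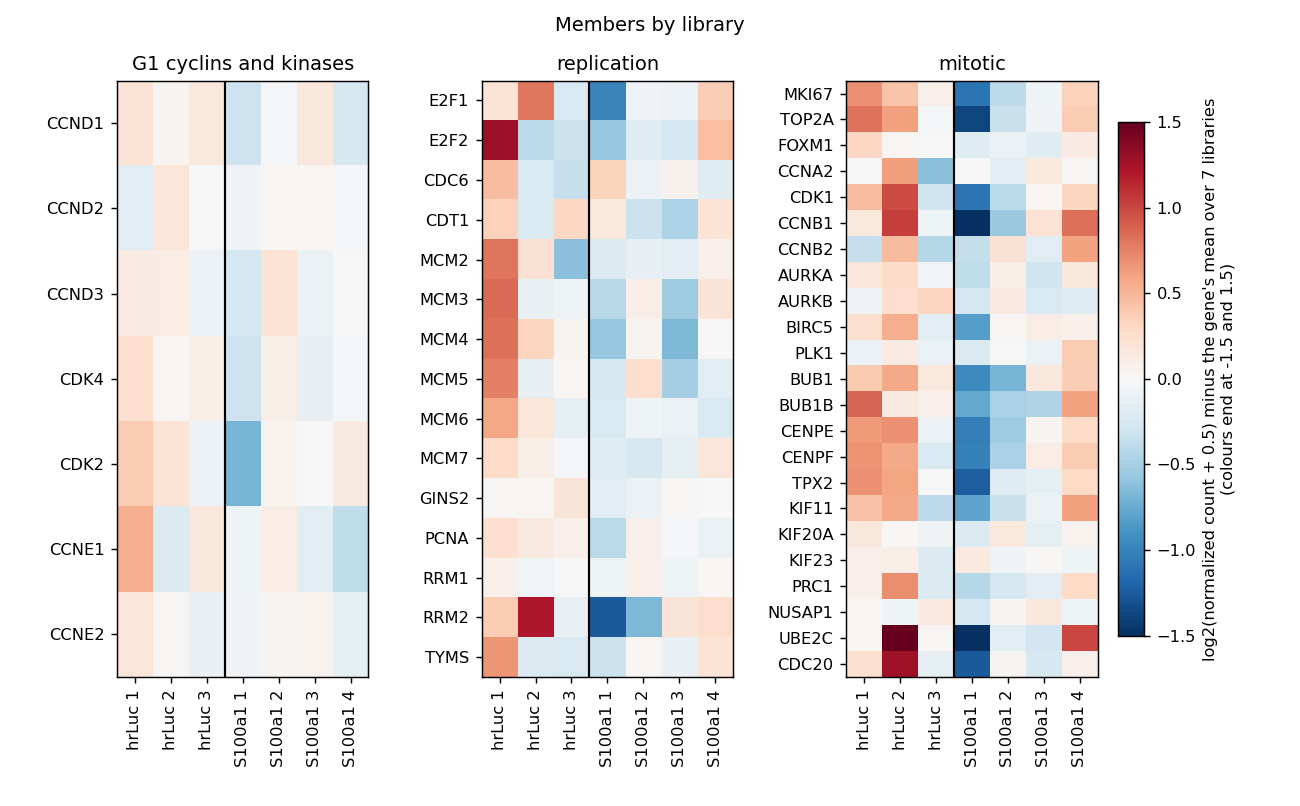
Each gene's log2(normalized count + 0.5) minus its own mean over the 7 libraries (colour, red higher and blue lower, on a scale cut at the same size on both sides), with libraries as columns and a line between hrLuc and S100a1. S100a1 replicate 1 is the lowest library in 19 of the 23 mitotic genes, and hrLuc replicate 1 is the highest in 12 of the 15 replication genes.

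Single libraries stood out in different classes. S100a1 replicate 1 was the lowest of the 7 libraries in 19 of the 23 mitotic genes, 8 of the 15 replication genes and 4 of the 7 G1 genes, against 24.1% of all genes tested. The highest library of the replication genes was hrLuc replicate 1 in 12 of 15 (18.4% of all genes), and that of the mitotic genes was hrLuc replicate 2 in 10 and hrLuc replicate 1 in 7 of 23 (12.9% and 18.4% of all genes). Averaged over the mitotic genes, the deviation from each gene's mean was 0.29, 0.52 and -0.10 log2 units in hrLuc and -0.76, -0.19, -0.07 and 0.30 in S100a1. The replication genes gave 0.52, 0.11 and -0.10, and -0.34, -0.09, -0.19 and 0.09. In both classes hrLuc replicate 3 lay within the S100a1 range, and S100a1 replicate 4 exceeded it in 21 of 23 mitotic and 9 of 15 replication genes, against 43.4% of all genes.

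The spread of the mitotic genes over the 7 libraries was wider than that of most genes. Among genes with at least 50 reads in every library, the highest library exceeded the lowest by a median of 2.29 times in 12 mitotic genes, 1.87 times in 10 replication genes and 1.41 times in 6 G1 genes, and by 1.327 times over 12801 genes. A range of 3-fold or more was found in 4 of those 12 mitotic genes and in 1.66% of all genes at that depth. Those ranges span both labels and so hold the difference between them. Within labels, the median SD at the same depth was 0.39 log2 units for the 12 mitotic genes, 0.30 for the 10 replication genes and 0.14 for all 12801 genes.

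**Figure D4:**
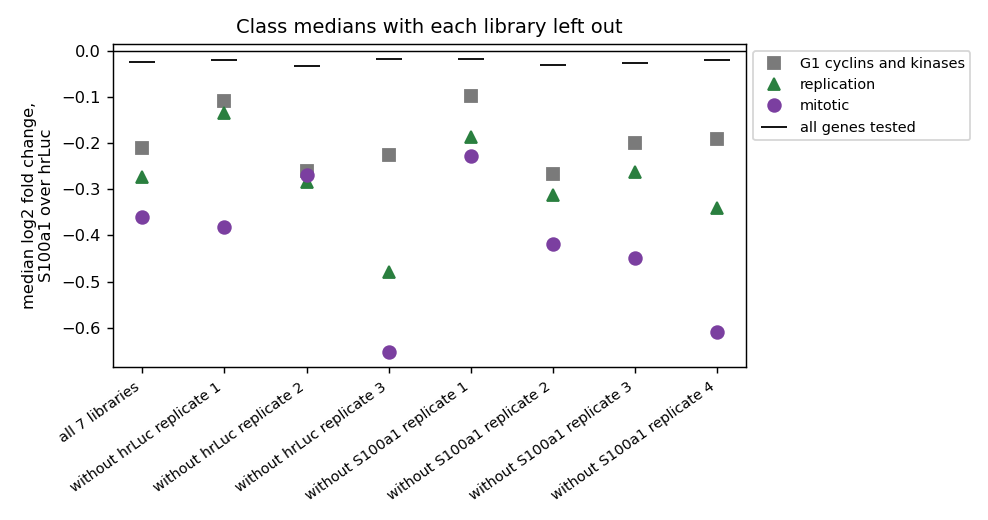
Median log2 fold change (y axis) of the 3 classes and of all genes, with all 7 libraries and with each library left out (x axis). The mitotic median moves between -0.65 (without hrLuc replicate 3) and -0.23 (without S100a1 replicate 1), whereas the median of all genes stays near 0.

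Whichever library was left out, the class medians stayed negative, but their size and the number of lower genes depended on single libraries. The mitotic median was -0.23 without S100a1 replicate 1, -0.65 without hrLuc replicate 3 and -0.61 without S100a1 replicate 4. Leaving out hrLuc replicate 1 gave -0.13 for the replication genes, and leaving out hrLuc replicate 3 gave -0.48. For the G1 genes it was -0.10 without S100a1 replicate 1 and -0.11 without hrLuc replicate 1. Members lower at an unadjusted p under 0.05 (limma) numbered 0 without S100a1 replicate 1, where 3.41% of all genes were lower at that level. They numbered 1 without hrLuc replicate 1 (2.42% of all genes) and 1 without hrLuc replicate 2 (6.31%). There were 10 without S100a1 replicate 4 (4.16%) and 11 without hrLuc replicate 3 (4.03%), against 3 with all libraries (4.57%). No member passed the adjusted threshold in any of these fits.

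Genes of the same processes outside the 45 had a negative median for mitosis and a median nearer 0 for replication, a contrast that was not tested. Of 51 other mitotic genes, 46 had a negative log2 fold change, the median was -0.35, and 6 were lower and 0 higher at an unadjusted p under 0.05 (limma), with 0 past the adjusted threshold. The shares of all genes at that level, 4.57% lower and 3.69% higher, hold for this and the following lists. The 3 with the smallest p were CDCA2 at -0.75 (adjusted p = 0.534, limma), CDCA5, which protects sister chromatid cohesion, at -0.86 (0.568) and HMMR, a spindle protein that overlaps NUDCD2, at -0.88 (0.576). Averaged over the 51 other mitotic genes, the deviation from each gene's mean was 0.40, 0.32 and -0.08 in hrLuc. In S100a1 it was -0.66, -0.18, -0.02 and 0.22, again with replicate 1 lowest. Of 44 other replication genes, 28 were negative, with a median of -0.06 and 1 lower at an unadjusted p under 0.05, the flap endonuclease FEN1 at -0.47 (adjusted p = 0.557, limma). ORC4 of the origin recognition complex was at 0.15 and UHRF1, which overlaps ARRDC5, at -0.64, neither past the threshold. Among 26 CDK inhibitors, pocket proteins and their partners, 17 were negative, the median was -0.07 and 1 gene was lower at an unadjusted p under 0.05, LIN9 of the DREAM complex at -0.31 (adjusted p = 0.593, limma). CDKN2C, an inhibitor of CDK4, was at -0.39 and E2F8 at -0.44, both short of the threshold.

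**Figure D5:**
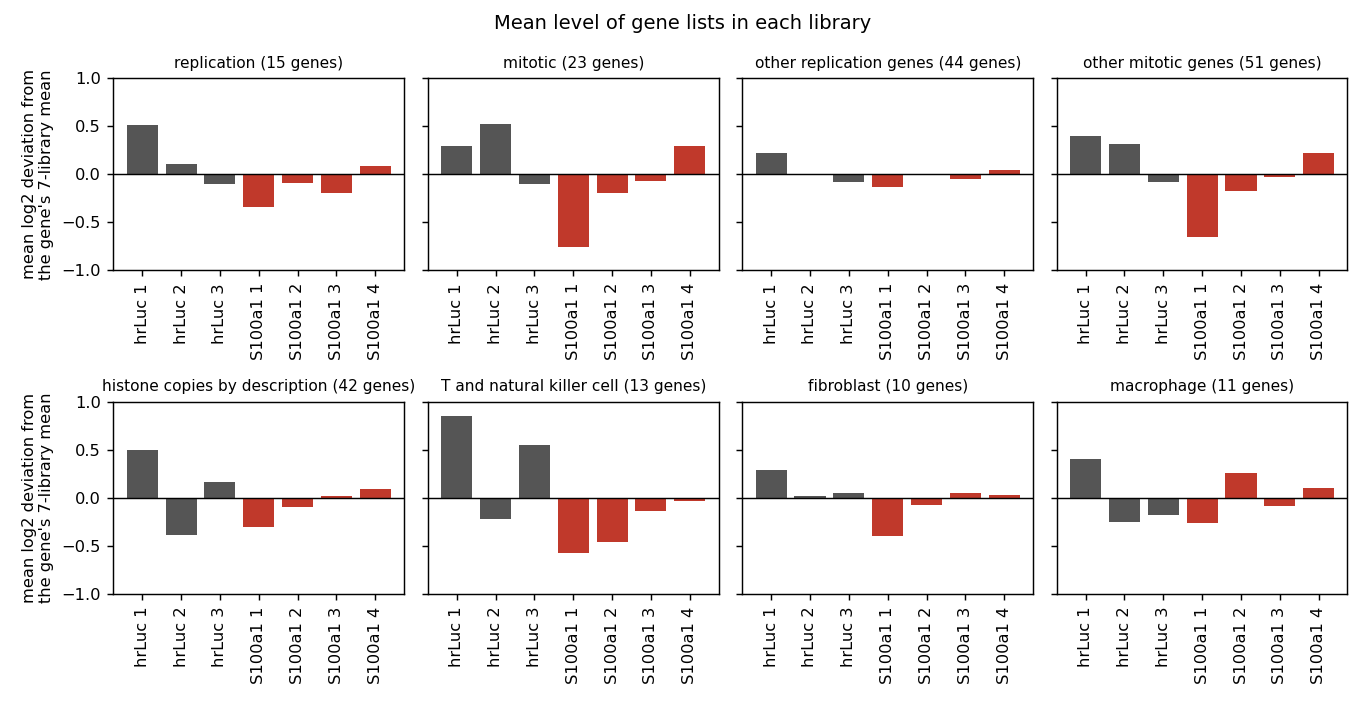
Mean over the genes of a list of the log2 deviation from each gene's 7-library mean (y axis) in each library (bars, grey for hrLuc and red for S100a1). S100a1 replicate 1 is lowest for the mitotic genes (-0.76), the other mitotic genes (-0.66) and the T cell markers (-0.58). The highest library is hrLuc replicate 2 for the mitotic genes (0.52) and hrLuc replicate 1 for the other mitotic genes (0.40) and the T cell markers (0.85).

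Markers of the cell types that could hold the dividing cells also differed between libraries, not always in the order of the mitotic genes. Their part in these values was not tested. Counts are of markers kept by the filter on low values, and sums are of all listed markers in the table. For T and natural killer cells 12 of the 13 were negative in log2 fold change, with a median of -0.71. At an unadjusted p under 0.05 (limma) 4 were lower and 0 higher, against 4.57% and 3.69% of all genes. None passed the adjusted threshold. The 3 of smallest p were CD5 at -1.11 (adjusted p = 0.415, limma), CD4 at -0.80 (0.532) and GZMH at -1.16 (0.534). Of the 10 fibroblast markers 3 were lower and 0 higher at that unadjusted level. They were PI16 at -0.49 (adjusted p = 0.563, limma), LUM at -0.31 (0.568) and COL1A1 at -0.44 (0.576). Of the 10 mural markers 2 were lower and 0 higher. In each remaining cell type list at most 1 marker was lower and at most 1 higher. The summed level of the T and natural killer list was 928 to 1735 normalized counts in hrLuc and 843 to 1051 in S100a1. Fibroblast markers were negative in 9 of 10, with sums of 134801 to 156029 in hrLuc and 87753 to 140219 in S100a1, lowest in S100a1 replicate 1. Macrophage markers were negative in 5 of 11 and summed to 7283 to 11405 and 6680 to 10462, highest in hrLuc replicate 1. Endothelial markers were negative in 8 of 10 (30483 to 35701 and 29904 to 33067) and mural markers in 8 of 10 (31355 to 39394 and 30410 to 34888). Markers of B and plasma cells were negative in 5 of 6 (317 to 655 and 272 to 332), those of mast cells and neutrophils in 3 of 6 (1696 to 2581 and 952 to 1440), and those of erythroid cells and marrow progenitors in 3 of 6 (2795 to 2925 and 2127 to 2821). JCHAIN was at 335 in hrLuc replicate 1 and at 72.5 to 105 in the other libraries. Without JCHAIN the B and plasma cell sum was 212 to 320 in hrLuc and 183 to 239 in S100a1. KIT held most of the mast cell sum, which without it was 504 to 710 in hrLuc and 514 to 699 in S100a1. CD34 held most of the erythroid and progenitor sum, which without it was 227 to 451 in hrLuc and 238 to 377 in S100a1. Heart muscle markers were positive in 7 of 9, with sums of 4396954 to 4983120 in hrLuc and 4546331 to 5886300 in S100a1, highest in S100a1 replicate 1. No marker in the table was at 0 in every library. Averaged as above, the T cell markers were lowest in S100a1 replicate 1 (-0.58), as were the mitotic genes (-0.76). The T cell markers stood at -0.22 in hrLuc replicate 2, where the mitotic genes were highest (0.52). In S100a1 replicate 1 the fibroblast (-0.40), macrophage (-0.26) and erythroid and progenitor (-0.54) markers were lowest too. The macrophage markers were nearly as low in hrLuc replicate 2 (-0.25). Of the 6 erythroid and progenitor markers, 3 were lowest and 2 highest in S100a1 replicate 1. HBB was at 3.28 normalized counts in that library and at 25.7 to 65.9 in the others, so this mean rests largely on HBB. The other lists stood in S100a1 replicate 1 at 0.0047 (endothelial), 0.14 (mural), -0.12 (B and plasma), -0.05 (mast cell and neutrophil) and 0.09 (heart muscle). Mural (0.30) and endothelial (0.18) markers were highest in hrLuc replicate 2. Among the other lists, only fibroblast (0.02) and B and plasma cell markers (0.10) were positive in that library.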

How the data were processed

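RNA sequencing of 7 pig heart libraries (3 hrLuc, 4 S100a1) was deposited as 1 table of 63562 transcript rows, all matched to RefSeq genes of Sscrofa11.1. Per the labels' protocols, total RNA was used for libraries depleted of ribosomal RNA. Tools named in the submitters' processing notes are DESeq2 1.33.1, FastQC 0.11.8 and R 4.1.2, with the build Sscrofa11.1. The aligner, the counter and its strand setting were not given in the sources used here. What the authors deposited per library is a signal, in which every read of a library has the same worth. Within 0.01 read, 100% of values came out as whole reads, so reads were recovered. The deposited log2, ratio (fold change) and adjusted p-value columns are the authors' comparison. The file headers do not name the adjustment.

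The row of highest mean was kept per gene. Genes at 10 or more in at least 3 libraries were fitted with limma 3.58.1 (R 4.3.3, mean-variance trend, log2(value + 0.5), no covariates, two-sided, 5 residual and 3.84 prior degrees of freedom) and adjusted by Benjamini-Hochberg over 15661 genes. No p was adjusted over the members alone, and lists were described by counts and medians without a test. The fits were also run on simulated counts with the same dispersion for every gene. That run does not show whether differences of the members' size and spread could be detected. edgeR 4.0.16 and DESeq2 1.42.0 on recovered reads, other scalings, filters, pseudocounts and transcript rows, a replicate block and removal of each library were the alternatives. The row of lowest mean and the removal of overlapping genes were added after seeing the data.

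The members, lists and tests were chosen with earlier results of these data known. Values per library were to be given for the 4 replication and 4 mitotic genes of smallest p, MKI67, TOP2A and the G1 genes. From each other list the genes past the threshold, or up to 3 of smallest p, were to be named. The overlapping genes were named after their values were seen. Each title names a separate pig, and no batch or date is given. The libraries carry numbers, 33, 39 and 45 for hrLuc replicates 1 to 3 and 57, 9, 15 and 21 for S100a1 replicates 1 to 4. The hrLuc numbers lie together with S100a1 numbers on both sides, and S100a1 replicate 1 stands apart from the other S100a1 libraries. Whether the values follow these numbers was not tested. Levels were not compared between genes per length, since transcript lengths were not used here. The deviations of libraries with the same replicate number did not run together (correlations -0.022, -0.075 and 0.082), so the replicate numbers were not read as pairs.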

Additional observations from a re-analysis of the deposited data

Results flagged for a closer look

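In the group of 4 S100a1 libraries, 2 single values stood far from the other 3. BIRC5, an inhibitor of apoptosis that acts in the chromosomal passenger complex, was at 20.7 normalized counts in S100a1 replicate 1 against 37.8 to 40.4 in the others. BUB1B, a spindle checkpoint kinase, was at 74.2 in S100a1 replicate 4 against 28.4 to 35.4. The test for an isolated value was run on 46 genes, and chance flags about 1 in 20 such groups. The 3 hrLuc libraries are too few for it.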

How the results depend on the processing

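The medians of the 3 classes were negative under all 18 alternatives run. The number of all genes past an adjusted p of 0.05 was 2 in limma, 89 with DESeq2, 1 with median centring and 0 with the replicate number as a block, and it ranged from 0 to 3 with each library left out. None of the 45 genes was among them in any of these fits. Genes of the 45 lower at an unadjusted p under 0.05 numbered 3 (4.57% of all genes), against 1 with median centring (2.8%), 1 with quantile normalization (3.79%), 10 with the block (3.34%), which drops S100a1 replicate 4, and 0 to 11 with each library left out. The cause of these shifts was not tested. The sign of the log2 fold change turned in 11 of the 45 genes, each within 0.33 of 0, and in none of the other 34. CCND2 was at 0.0098 with DESeq2, 0.011 with edgeR, 0.045 with median centring and 0.0023 with the block. Median centring gave 0.023 for RRM1 and 0.043 for CCNA2, quantile normalization 0.00041 for CCNE2 and 0.031 for CCNA2, and the block -0.084 for PLK1. With each library left out, the range was -0.32 to 0.31 for CCNA2, -0.090 to 0.091 for CCND2, -0.12 to 0.023 for CCNE2, -0.086 to 0.32 for CDC6, -0.62 to 0.22 for E2F2, -0.079 to 0.076 for KIF23, -0.62 to 0.096 for MCM2, -0.13 to 0.014 for NUSAP1, -0.084 to 0.11 for PLK1, -0.052 to 0.0074 for RRM1 and -0.28 to 0.17 for TYMS. Depth limits the genes of few reads most: CDC6 rests on 13 to 28 reads per library and UBE2C on 4 to 58.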

Other observations

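Replication-dependent histone genes, whose messages lack a poly(A) tail and can be kept by ribosomal depletion, stood below their own mean in hrLuc replicate 2, where the mitotic genes stood above theirs. The 42 histone copies identified by their description in the table, a list made after the data were seen, had a median log2 fold change of -0.19, with 36 negative and 0 past an unadjusted p of 0.05 in either direction (limma). Their mean deviation was 0.50, -0.39 and 0.17 in hrLuc and -0.30, -0.09, 0.02 and 0.09 in S100a1. By this mean hrLuc replicate 2 was lowest, the library highest for mitotic genes (0.52). By count, S100a1 replicate 1 was the lowest library of 15 copies and hrLuc replicate 2 of 14. Of 5 histone genes with a symbol, 4 were negative, HIST1H3E being at -0.50 and HIST1H2BD at -0.24, whereas the linker histone H1-2 was at 0.48, none past the threshold. Histone copies are near-identical, so their reads can be split or shared between rows.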
